A study of Saccharomyces cerevisiae and Neurospora crassa and Schizosaccharomyces pombe with 13 samples.

Results

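The carotenoid pigment genes of the filamentous fungus Neurospora crassa analysed here are al-3 (NCU01427), al-2 (NCU00585), al-1 (NCU00552) and ylo-1 (NCU04013), 4 of the 9730 genes in the deposited gene annotation. They were chosen by their locus identifiers and not by any measured value. The annotation pairs no symbol with an identifier, so the symbols are those in general use for these loci and were not checked against a sequence. The series itself comprises 13 libraries of MNase-seq, a method in which micrococcal nuclease digests the DNA that nucleosomes leave unprotected. Of these libraries 10 are from Saccharomyces cerevisiae (labelled WT or isw2), 1 is from Schizosaccharomyces pombe and 2 are from wild-type N. crassa. The N. crassa libraries are labelled Rapid. Their conidia had been grown in Vogel's solution for 3.5 h, with over 70% germinated, and fixed with 1% formaldehyde for 10 min. The annotation belongs to no library and carries no read count, so neither sequencing depth nor the footprints over these genes were analysed here. Every value below is a length or a position in that annotation. It is 1 set of gene models without replicates, so no test was made. As a guide to how far a rank depends on the genes it is taken against, ranks were also computed against each of the 7 sequences, numbered 1 to 7 in the annotation.

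Orange pigment gives N. crassa its colour and is made mainly in conidia and, after exposure to light, in the mycelium. AL-3, a geranylgeranyl diphosphate synthase, makes the precursor of the pathway, and AL-2 joins precursor molecules into the colourless phytoene and later closes the ring at the end of the chain. AL-1, a phytoene desaturase, adds the double bonds that give colour, and YLO-1, an aldehyde dehydrogenase, carries out the last oxidation to the acidic pigment neurosporaxanthin. Mutants of the al genes are albino and ylo-1 mutants are yellow. Transcription of the al genes is induced by blue light through the White Collar complex, so the DNA before their starts is of interest for nucleosome mapping. In the fungus Mucor circinelloides the counterparts of al-1 and al-2 lie next to each other and are transcribed away from each other.

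The 4 genes lay on 3 sequences. The gene al-3 was on sequence 5 at 4030155 to 4032913, al-2 on sequence 1 at 7920916 to 7924255, al-1 on sequence 1 at 8029857 to 8032395 and ylo-1 on sequence 6 at 2190755 to 2193895. The al genes were on the minus strand and ylo-1 on the plus strand. None was close to the end of a sequence: the distance to the nearer outermost gene base of the sequence was lowest for al-1, 1740 kb, and highest for al-3, 2403 kb.

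All 4 genes spanned more DNA than the median gene of 2129 bp. The span was 2759 bp for al-3, 3340 bp for al-2, 2539 bp for al-1 and 3141 bp for ylo-1. Of the 9730 genes, 80.5% had a shorter span than al-2, and 63.3% had a shorter span than al-1, the shortest of the 4. With the 7 sequences taken one by one as the reference, the rank of al-2 ran from 78.8% to 83.4% and that of al-1 from 61.1% to 66.2%. All 4 had both UTRs (the parts of a transcript before and after its coding bases) and at least 1 intron; 75.7% of all genes had both UTRs and 81.6% had an intron. A span without an annotated UTR lacks those bases. Against the 7362 genes with both UTRs the ranks by span were 76.0% for al-2 and 55.7% for al-1, still above the median.

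**Figure D1:**
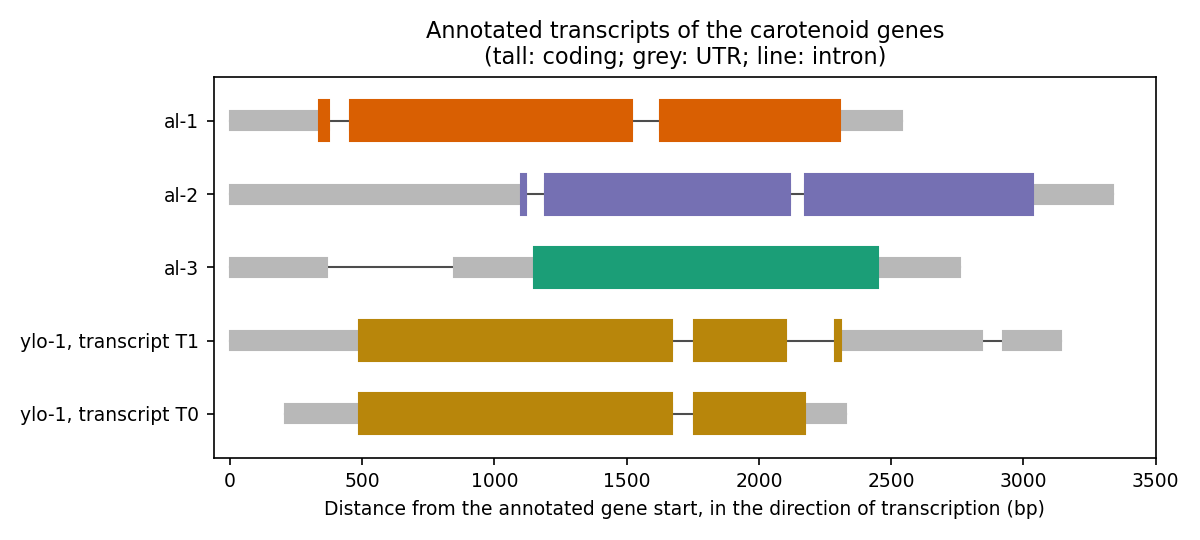
Annotated transcripts of al-1, al-2, al-3 and ylo-1 drawn to scale from the gene start (x axis, bp, in the direction of transcription), with coding parts tall and coloured, UTRs in grey and introns as lines. Coding regions begin 335 bp after the start in al-1 and more than 1000 bp after it in al-2 and al-3, and the 2 transcripts of ylo-1 differ at both ends.

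The precursor enzyme gene al-3 had 1 transcript of 2 exons and an uninterrupted coding region. Exon 1 measured 366 bp and held no coding base. Exon 2 measured 1911 bp and held all 1299 coding bases, which encode 433 residues. The only intron therefore lay in the 5' UTR, from 4032066 to 4032547. At 482 bp it was longer than 98.1% of the 16983 introns of the longest transcripts, whose median was 75 bp, and longer than 94.8% of the 1154 introns that lie in 5' UTRs. An intron in the 5' UTR combined with none in the coding region occurred in 285 genes, 2.93% of all. The exonic 5' UTR of al-3 was 667 bp, which 86.5% of genes did not reach, and with the intron the start codon lay 1149 bp after the start, a distance that 96.2% of genes did not reach. A nucleosome profile aligned at the start of al-3 thus covers noncoding DNA over its first 1149 bp downstream. In N. crassa, al-3 is known for a second transcript made during conidiation from another start; the annotation gives it 1 start.

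The gene al-2 stood out by the length of its 5' UTR. This UTR measured 1100 bp, against a median of 320 bp over the 7657 genes with an annotated 5' UTR. It was longer than 96.5% of all genes' (95.4% to 97.2% over the 7 sequences) and 95.6% of those annotated. The gene was 1 of 456 with a 5' UTR over 1000 bp, 4.69% of all. Most of these, 299, had no intron within it, as in al-2. The transcript had 3 exons of 1120, 927 and 1165 bp. Only 20 bases at the end of exon 1 were coding. They were followed by introns of 71 bp (7923065 to 7923135) and 57 bp (7922081 to 7922137), and 10.9% of coding introns were shorter than the second of these. The coding length was 1806 bp, or 602 residues, 56.2% of the exonic length of 3212 bp. The 3' UTR of 303 bp was near the median of all genes, and 41.8% of annotated 3' UTRs were shorter.

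The desaturase gene al-1 resembled al-2 in coding length and number of introns and not in its 5' UTR. It also had 3 exons, of 375, 1067 and 912 bp, and 2 introns, of 77 bp (8031944 to 8032020) and 108 bp (8030769 to 8030876). The coding length of 1785 bp, or 595 residues, was 21 bp shorter than that of al-2, and the ranks were alike, with 70.6% of genes shorter than al-1 and 71.2% shorter than al-2. As in al-2, exon 1 was almost all UTR: 40 bases in it were coding. Among the 7564 genes with a coding intron the median number of coding bases before the intron nearest the start was 196, and 907 of these genes had fewer than al-1 and 434, or 5.74%, fewer than al-2. Genes with 2 introns, both in the coding region, and no more than 40 coding bases before them numbered 288, or 2.96% of all. The limit of 40 was the value of al-1 itself, so this share only describes where these 2 genes lie. The 5' UTR of al-1 was 335 bp, close to the median of annotated 5' UTRs (52.2% were shorter), and 765 bp shorter than that of al-2. Its 3' UTR of 231 bp was the shortest of the 4 and ranked above 42.3% of genes, or 27.9% of those with an annotated 3' UTR.

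The gene for the last step, ylo-1, was the only one of the 4 with more than 1 transcript. Several transcripts were annotated for 898 genes, 9.23% of all, and 767 of these had 2, as ylo-1 did. Transcript T1 began at 2190755 and T0 at 2190963, 208 bp further downstream. Over the 506 genes whose transcripts began at different bases, the outermost starts lay a median of 195.5 bp apart, so the spacing in ylo-1 was near the middle. Both transcripts shared the start codon at 2191244, which left a 5' UTR of 489 bp in T1 and 281 bp in T0.

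The ylo-1 transcripts also differed in how the coding region ends. They had 1528 coding bases in common, interrupted by a shared intron of 84 bp (2192427 to 2192510). T1 then removed an intron of 187 bp (2192856 to 2193042) and ended its coding region after 20 more bases. In T0 all 187 bp were exon, the coding region ran 71 bases into them and the stop codon lay at 2192927 to 2192929. The predicted proteins were 516 residues for T1 and 533 for T0, the same over 509 complete codons. Different stop codons were annotated in 100 of the 898 genes with several transcripts (11.1%), and with a single start codon in 90 (10.0%). Differing starts, ends and stop codons together, as in ylo-1, occurred in 49 (5.46%).

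Beyond the stop codon, T1 of ylo-1 carried a further intron of 81 bp (2193597 to 2193677), placed 531 bases after the stop codon. An intron in the 3' UTR was annotated in 278 genes, 2.86% of all. T1 ended at 2193895, 812 bp beyond the end of T0, and its 3' UTR of 749 bp was longer than in 89.4% of genes, whereas that of T0 was 154 bp. The rank of ylo-1 among all genes thus depended on the transcript. Taken by exonic length (T1), 76.2% of genes had fewer introns, 76.3% a shorter 5' UTR and 89.4% a shorter 3' UTR. When each gene was represented by the transcript of longest coding region (T0 for ylo-1), these shares were 18.4%, 56.6% and 31.3%.

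The DNA before the 4 starts differed far more than the genes themselves did. The gap to the next annotated gene upstream was 33473 bp for al-3, 1644 bp for al-1, 829 bp for ylo-1 and 11 bp for al-2, against a median of 789 bp (quartiles 319 and 1797 bp) over 9725 genes with an upstream neighbour. The gaps of al-3 and al-2 lay at the opposite ends of this distribution, and those of al-1 and ylo-1 within its middle part. Longer gaps than that of al-3 preceded 51 genes, 0.524%, of which 7 were on sequence 5. Shorter gaps than that of al-2, overlaps included, preceded 325 genes, 3.34%. Taken against each sequence, the rank of al-3 stayed between 99.3% and 99.8% and that of al-2 between 2.23% and 3.93%.

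**Figure D2:**
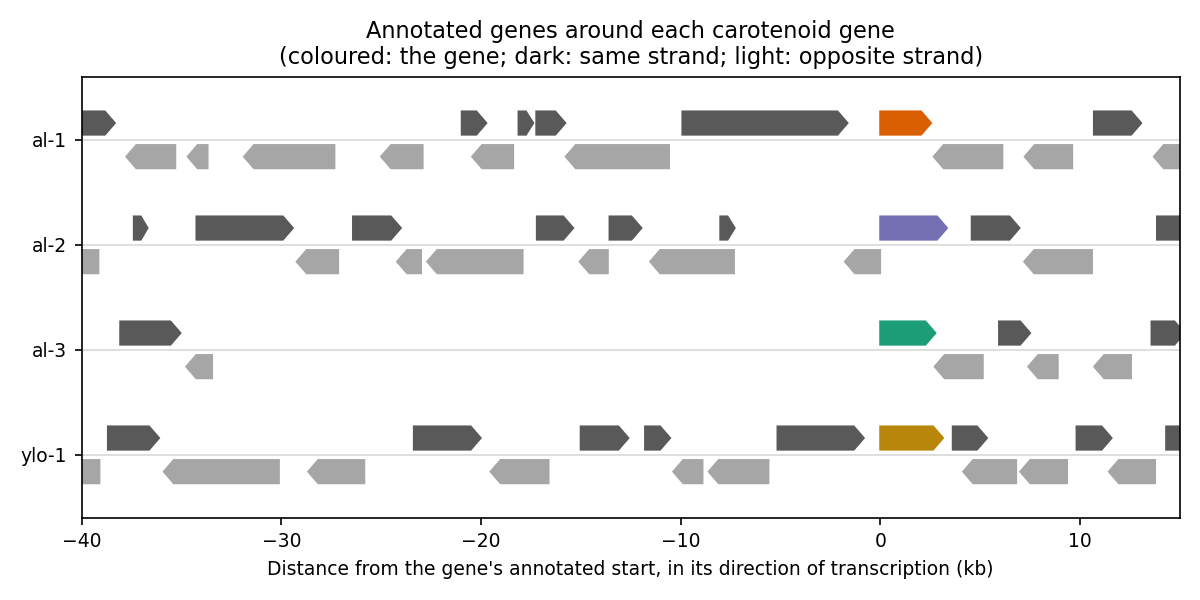
Annotated genes from 40 kb before to 15 kb after the start of each carotenoid gene (x axis, kb, in its direction of transcription), with the gene coloured, genes on its strand dark and genes on the opposite strand light. The 33473 bp before al-3 hold no annotated gene, and the gene before al-2 starts 11 bp from it on the opposite strand.

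The gene before al-2, NCU00584, ran from 7924267 to 7926022 on the plus strand, so the pair was divergent and its starts faced each other across 11 bp. Among 2682 divergent pairs 121 had a smaller gap, of which 116 overlapped, and 7 had a gap from 0 to 11 bp, the al-2 pair included. The coding regions of the pair were not close. Between them lay 1627 bp, made up of the 1100 bp 5' UTR of al-2, the gap of 11 bp and the 516 bp 5' UTR of NCU00584. Measured between coding spans, 55.5% of genes had a shorter upstream gap than al-2, in place of 3.34%. The short gap was therefore a property of the annotated transcript ends, which were not tested against transcript data here. In the 1000 bp before the start of al-2, 989 bp belonged to NCU00584.

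The gene before al-3, NCU06636, ran from 4066387 to 4067673 on the plus strand and was also divergent from it. Of the divergent pairs, 14 had a longer gap. With coding spans in place of gene spans the distance was 34932 bp and the rank stayed at 99.5%. The surroundings of al-3 were gene-poor on the upstream side. In the 50 kb before its start lay the starts of 3 other genes, fewer than before 98.0% of genes, and in the 50 kb after it 13, equal to the median of either side. Both sides together held 16, fewer than around 94.4% of genes, whose median was 26. Around al-2 there were 32, more than around 89.2% of genes, and around al-1 and ylo-1 there were 27 and 23. Only genes with a coding region are annotated, so other kinds of genes may lie in the 33473 bp.

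The starts of al-1 and ylo-1 followed genes on the same strand. NCU00551, of 8266 bp, ended 1644 bp before al-1, and NCU04014, of 4316 bp, ended 829 bp before ylo-1. Among the 4361 such tandem neighbours, with a median gap of 827 bp, 72.3% of gaps were shorter than that of al-1 and 50.1% shorter than that of ylo-1. The 1000 bp before the start were free of other genes for al-1 and al-3 and not for al-2 and ylo-1, where 11 and 829 bp were free. For ylo-1 this holds from the start of T1. The start of T0 lay 1037 bp after NCU04014, and the 1000 bp before it held 0 other genes. Over all genes 42.4% of starts had this window free.

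**Figure D3:**
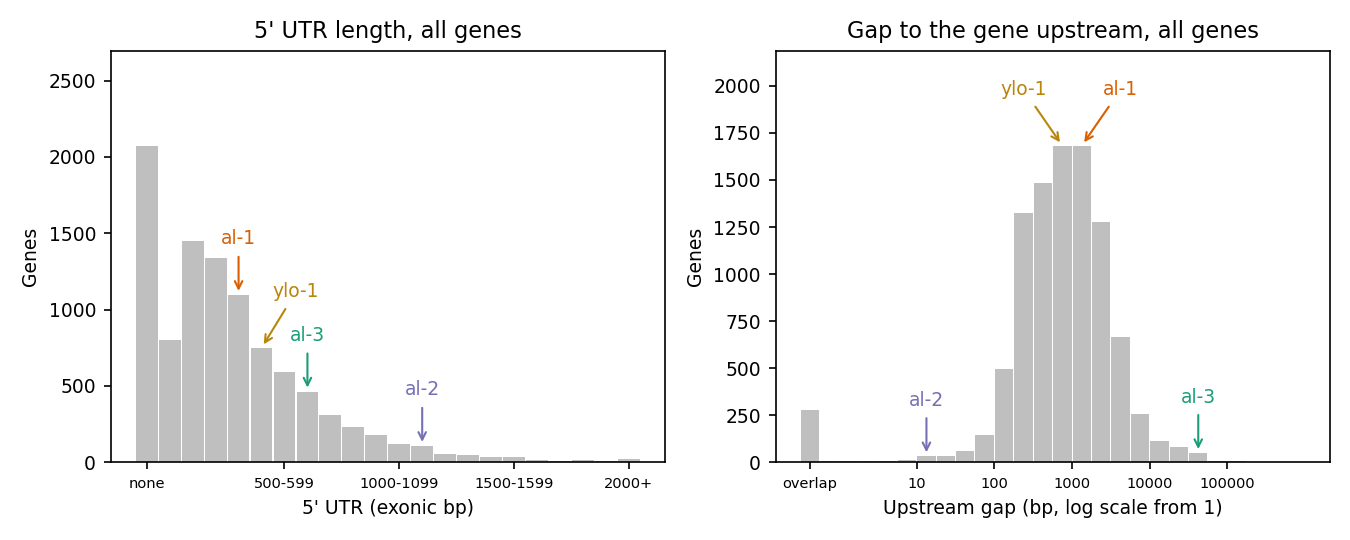
Number of genes by 5' UTR length (left, exonic bp, in steps of 100 bp, genes without one in the bar marked none) and by the gap to the gene upstream (right, bp, log scale, overlapping genes in the leftmost bar), with arrows at the bars that hold each carotenoid gene. In the left panel al-2 (1100 bp) is in the upper tail, and in the right panel al-2 (11 bp) and al-3 (33473 bp) are in opposite tails.

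The ends of the al-3 and al-1 transcripts lay close to those of genes on the opposite strand. The convergent neighbour of al-3, NCU01426, overlapped it by 32 bp, the only overlap of any of the 4 with another gene, and the coding regions of that pair were 545 bp apart. Overlaps occurred in 966 of 2680 convergent pairs, 36.0%. The end of al-1 was 138 bp from that of NCU00553, against a median of 172 bp for convergent pairs. The genes after al-2 and ylo-1, NCU00586 and NCU04012, were on the same strand, at 1243 and 493 bp. MNase-seq reads carry no strand of transcription, so footprints over the 32 bp cannot be assigned to al-3 or to NCU01426.

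Although al-1 and al-2 shared a sequence and a strand, they were not neighbours. Between their spans lay 105601 bp with 35 annotated genes, of which 19 had the plus orientation and 16 had that of al-1 and al-2. This distance is 1.08% of the annotated range of sequence 1, and 2.31% of the 2753031 gene pairs on that sequence lay nearer to each other. Genes with 35 others between them were a median of 135 kb apart on sequence 1 (quartiles 120 and 157 kb), and 7.53% of 2311 such pairs were nearer than al-1 and al-2, so the stretch was shorter than most that hold as many genes. Annotated genes covered 72.7% of it, and the longest of them spanned 4824 bp. Since 1 pair gives 1 distance, no test of its closeness was made.

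**Figure D4:**
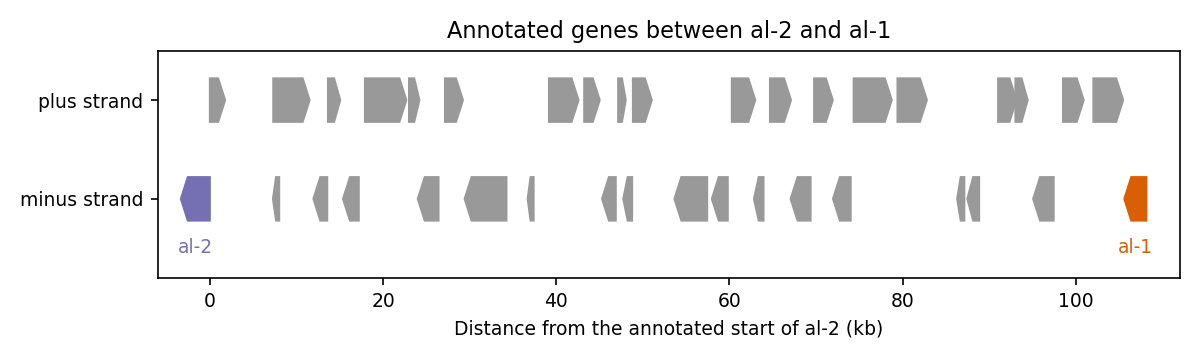
Annotated genes between al-2 and al-1 on sequence 1, by strand (x axis, distance from the start of al-2 in kb), with other genes in grey. The 2 carotenoid genes point the same way, and 35 genes fill the 105601 bp between them.

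Over 6 measures (span, coding length, intron count, both UTRs and upstream gap) some of the 4 genes were closer in structure than others. Likeness was measured as the Euclidean distance between percentile ranks over 9725 genes, where 0 means equal ranks. For this measure, genes with equal values shared the mean of their ranks. For ylo-1 the ranks were those of transcript T1. Its ranks by introns and both UTRs were lower by T0, as given above, and likeness by T0 is not given here. The nearest pair of members was al-1 and al-3, at a distance of 51.8: 1118 genes (11.5%) were nearer to al-1 than al-3 was, and 553 (5.69%) were nearer to al-3 than al-1 was. The gene ylo-1 was also nearer to each al gene than most genes were. In that order of members, the shares of nearer genes were 19.1% and 17.5% for al-1 and ylo-1 (distance 58.5), 15.8% and 26.2% for al-2 and ylo-1 (66.7), and 27.5% and 38.3% for al-3 and ylo-1 (77.6). For al-1 and al-2 the distance was 79.7, with 55.3% of genes nearer to al-1 and 27.4% nearer to al-2. Their ranks, too, differed most in the upstream gap (72.4% for al-1 and 3.34% for al-2). The members farthest apart were al-2 and al-3, at 103, with 55.8% of genes nearer to al-2 and 61.8% nearer to al-3, and their ranks differed most in the upstream gap.

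The genes most like each member were others of the annotation, given here by identifier and with no role. For al-2 it was NCU01757 on sequence 2 (distance 5.65), with a coding length of 1818 bp, 2 introns, a 5' UTR of 903 bp and an upstream gap of 109 bp, followed by NCU06624 on sequence 4, with a 5' UTR of 931 bp and an upstream gap of 193 bp. For al-1 they were NCU01147 (10.2) and NCU01055 (10.4), both on sequence 5, and for ylo-1, taken by T1, NCU15829 (9.72) and NCU06235 (13.6). For al-3 they were NCU07621 (14.2) and NCU05686 (15.0), whose upstream gaps of 4576 and 3348 bp remained far below the 33473 bp of al-3.

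**Figure D5:**
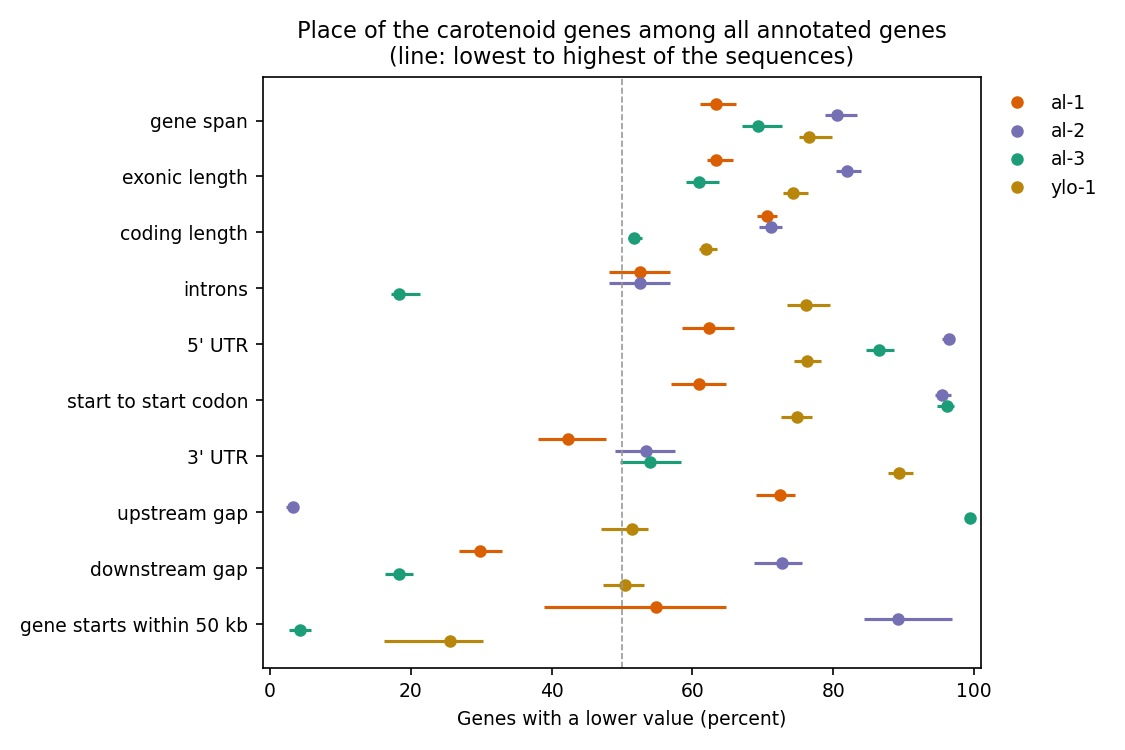
Percent of all annotated genes with a lower value than each carotenoid gene (x axis) for 10 structural measures, with points for the rank among all genes and lines from the lowest to the highest rank against each of the 7 sequences. All 4 genes are to the right of the dashed line at 50% for span, exonic and coding length, 5' UTR and distance to the start codon, and they spread over the whole axis for the upstream gap.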

How the data were processed

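The deposited file is a gene annotation in GTF format. The source column gives the calls as NC12, and the file is labelled OR74A, a strain, and "fixed"; what this correction was is not given in the sources used. The values the authors deposited are first and last bases, counted from 1; 0 of the 81022 records carry a score. From these records 10785 transcripts of 9730 genes were rebuilt. Each gene was represented by its longest transcript by exonic length, and its span covered all its transcripts. Stop codons were counted in neither coding length nor UTR. Neighbours were consecutive genes ordered by start, and gaps count the bases between spans. A rank is the percent of genes with a strictly lower value, a missing UTR counting as 0. Only in the measure of likeness did genes with equal values share the mean of their ranks. Genes named are the 4 members, their nearest neighbours, any overlapping gene and the 2 genes most like each member. The members were set by identifier, with no measured value in the rule, but earlier results of these data were known when members, measures and alternatives were chosen. The other pathway genes that had been listed were left out, since the tables used here pair their identifiers with no name. No N. crassa sequence was used. Python 3.11.15, NumPy 2.4.6, pandas 2.3.3 and matplotlib 3.10.9 were used. The calculations of span, coding length, intron count, UTRs and gaps were tested on a simulated annotation without alternative transcripts. These values were recovered for all 700 genes. The choice among transcripts, intron phases, gene density, pair distances and likeness were not tested in this way.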

Additional observations from a re-analysis of the deposited data

How the results depend on the processing

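No paired analysis was possible because the annotation belongs to no library and no test was made. Over 25 results, 63 alternatives were run; 31 moved a rank by no more than its SD over the 7 sequences and 32 moved it by more or changed a distance. The ranks by span against genes with both UTRs were 55.7% (al-1), 76.0% (al-2), 62.7% (al-3) and 71.3% (ylo-1). Against annotated 5' UTRs alone the ranks by 5' UTR were 52.2%, 95.6%, 82.9% and 69.9% in the same order, and against annotated 3' UTRs alone those by 3' UTR were 27.9%, 41.8%, 42.6% and 86.7%, which put al-2 and al-3 below the median instead of above it. These shifts follow from dropping genes without a UTR. With upstream gaps to same-strand genes alone the ranks were 36.0%, 77.2%, 98.5% and 23.3%, so that of al-2 rose from 3.34% and those of al-1 and ylo-1 fell below the median. Between coding spans they were 55.5% for al-2 and 57.4% for ylo-1, and among divergent genes 4.51% for al-2. From the start of transcript T0, an alternative chosen after seeing the data, it was 58.7% for ylo-1. With the transcript of longest coding region, ylo-1 ranked at 63.8% by coding length, 18.4% by introns, 56.6% by 5' UTR and 31.3% by 3' UTR. Against genes of its own sequence, al-1 ranked at 61.1% by span, al-1 and al-2 at 48.1% by introns, al-3 at 52.9% by coding length, and ylo-1 at 62.9% by coding length and 47.1% by upstream gap. The distance between al-1 and al-2 was 106932 bp between coding spans and 108139 bp between starts. The annotation has no depth, so no limit of depth applies.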

Other observations

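Locus identifiers of N. crassa mostly run in order along a sequence, and 7 of the 8 nearest neighbours of the carotenoid genes had an identifier that differed by 1 from the member's. The exception was across the 33473 bp before al-3, where the identifier went from NCU01427 to NCU06636. Of the 35 genes between al-2 and al-1, 31 carried identifiers from the 32 that lie between theirs, and 4 carried others.

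Coding introns of the carotenoid genes cut the reading frame at different places. In al-1 the introns followed 40 and 1107 coding bases, so the second lay between codons (phase 0) and the other after the first base of a codon (phase 1). In al-2 both followed the second base of a codon (phase 2), after 20 and 947 coding bases. In T1 of ylo-1 both were in phase 1, after 1183 and 1528. Over the 15528 coding introns of the longest transcripts, 38.8% were in phase 0, 34.3% in phase 1 and 27.0% in phase 2.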
